A study of Homo sapiens with 4 samples.

Results

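The ubiquitin-conjugating (E2) enzyme genes were followed in CWR22Rv1 cells, a human castration-resistant prostate carcinoma line, with and without knockdown of the ubiquitin ligase gene SIAH2. Members were the probes annotated to a symbol that starts with UBE2 and a further letter, with UBE2C and UBE2L6 set aside. This gave 37 probes of 25 symbols among 47228 probes on the array, of which 18007 carried 1 symbol. Of the symbols, 22 are protein-coding genes, 2 are transcribed pseudogenes (UBE2MP1 and UBE2Q2P2) and 1 is an antisense RNA gene (UBE2D3-AS1). Cells of both groups were puromycin-selected after infection, 2 arrays with the empty pLKO.1 vector and 2 arrays with a Siah2 shRNA in it. By its title, the study concerns Siah2 and the activity of the androgen receptor. The labels do not say which stretch of SIAH2 the shRNA targets or whether a line was 1 clone. They number the replicates without saying whether they were separate cultures, so the p-values measure the spread between these arrays, which may be technical.

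E2 enzymes stand in the middle of the ubiquitin cascade. An E1 enzyme activates ubiquitin, the E2 carries it on a catalytic cysteine, and an E3 ligase brings the charged E2 to the substrate. RING ligases such as SIAH2 do not hold ubiquitin themselves, so the E2 they recruit helps to set the type of ubiquitin mark. The UBE2D family is the group of E2 enzymes with the broadest range of RING partners. Some E2 enzymes carry a related modifier such as NEDD8 in place of ubiquitin.

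Between 19862 and 20632 probes were detected per array (detection p under 0.05), 42.1% to 43.7% of all probes. The arrays correlated at 0.985 within pLKO.1, at 0.983 within shSiah2 and at 0.957 to 0.969 between the groups, and their number limits the precision. The SIAH2 probe ILMN_1801313 read 334.5 and 490.5 on the pLKO.1 arrays and 185.2 and 196.8 on the shSiah2 arrays in deposited intensity. SIAH2 fell by 1.85 on the log2 scale (SE 0.251, limma adjusted p = 0.00117), and by 1.03 without background correction. SIAH1, the related ligase gene, lay at 0.16 on its brightest probe (SE 0.237, limma adjusted p = 0.763). All 7 luminal prostate markers were detected and tested, and their summed deposited intensity was 15535.7 to 20560.3 on the pLKO.1 arrays and 10585.9 to 12903 on the shSiah2 arrays. Such sums are not normalized between arrays, whose mean intensities ran from 650 to 846, and bright probes weigh most in them. HOXB13, TMPRSS2, SLC45A3 and FOLH1 fell, whereas KRT8, KRT18 and EPCAM did not pass. Of 4 stromal markers 3 were tested, with sums of 1497.8 to 2188.7 and of 3028.8 to 3029.6, and of these DCN fell by 1.98, LUM rose by 1.32 and COL1A1 did not pass. Of 3 leukocyte markers CD68 was tested and lay at 0.18, and no basal or endothelial marker was tested here. The part of these shifts in the E2 values was not tested.

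Most E2 probes did not pass the threshold between Siah2 knockdown and control cells, and neither did most of all tested probes. The median absolute log2 change was 0.31 over the tested E2 probes and 0.29 over all tested probes. Of the 37 E2 probes, 35 passed the filter of detection on at least 2 of the 4 arrays, and they covered all 25 symbols. Of these 35 probes, 0 rose, 1 fell and 34 did not pass (limma, Benjamini-Hochberg adjusted p under 0.05 over 20750 tested probes). The probe that fell belongs to UBE2E3. The share called was 2.86% of the E2 probes against 6.19% of all tested probes, where 2.47% were called higher and 3.72% lower. At an unadjusted limma p under 0.05, 3 E2 probes were higher and 3 lower, 17.1% of the E2 probes in all. Over all tested probes 21.1% passed this level, 10.1% higher and 11% lower. Of the 22 protein-coding genes, each represented by its brightest tested probe, 0 rose, 1 fell and 21 did not pass. Fold changes here are shSiah2 minus pLKO.1 in log2 normalized intensity.

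The median change of the 35 E2 probes was -0.10, with quartiles of -0.30 and 0.29, against 0.02, -0.27 and 0.30 over all tested probes. With pLKO.1 replicate 1 left out the E2 median was 0.02, with pLKO.1 replicate 2 left out -0.06, and with shSiah2 replicate 2 left out -0.02. The E2 changes ran from -0.90 to 1.01, and those of all tested probes from -4.71 to 4.26. An absolute change under 0.5 was seen for 28 E2 probes, 80% of them, against 73.5% of all tested probes. For 34 E2 probes that did not pass, 25 had a 95% interval that lay between -1 and 1, or 73.5% of them, against 70.4% of all probes that did not pass. A 2-fold difference thus lay outside the interval for these 25 probes and not for the others. The arrays of the groups did not overlap for 7 E2 probes that were higher and 9 that were lower in shSiah2 cells, while such separation was seen for 50.3% of all tested probes, 26.2% higher and 24.1% lower.

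**Figure D1:**
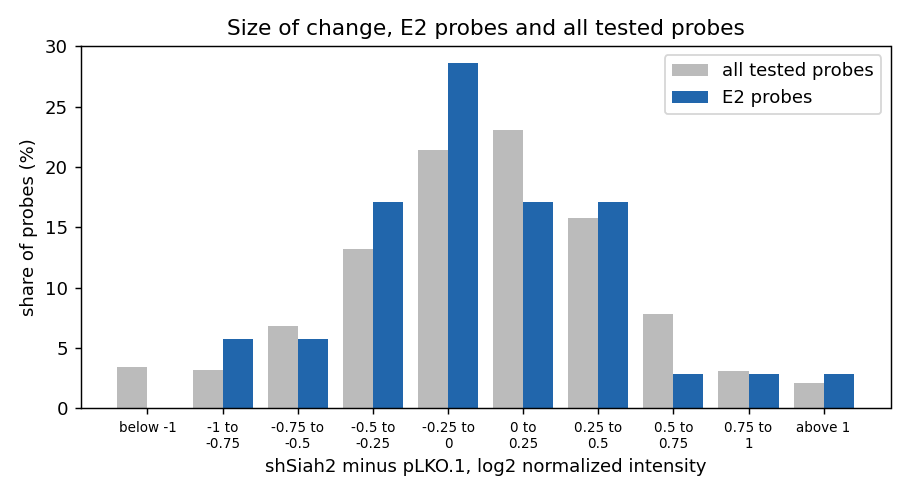
Share of probes, in percent, by size of the log2 change in shSiah2 cells, for the 35 E2 probes (blue) and all 20750 tested probes (grey). The lowest bin holds 3.43% of all tested probes and 0% of the E2 probes, and 28.6% of the E2 probes lie between -0.25 and 0.

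**Figure D2:**
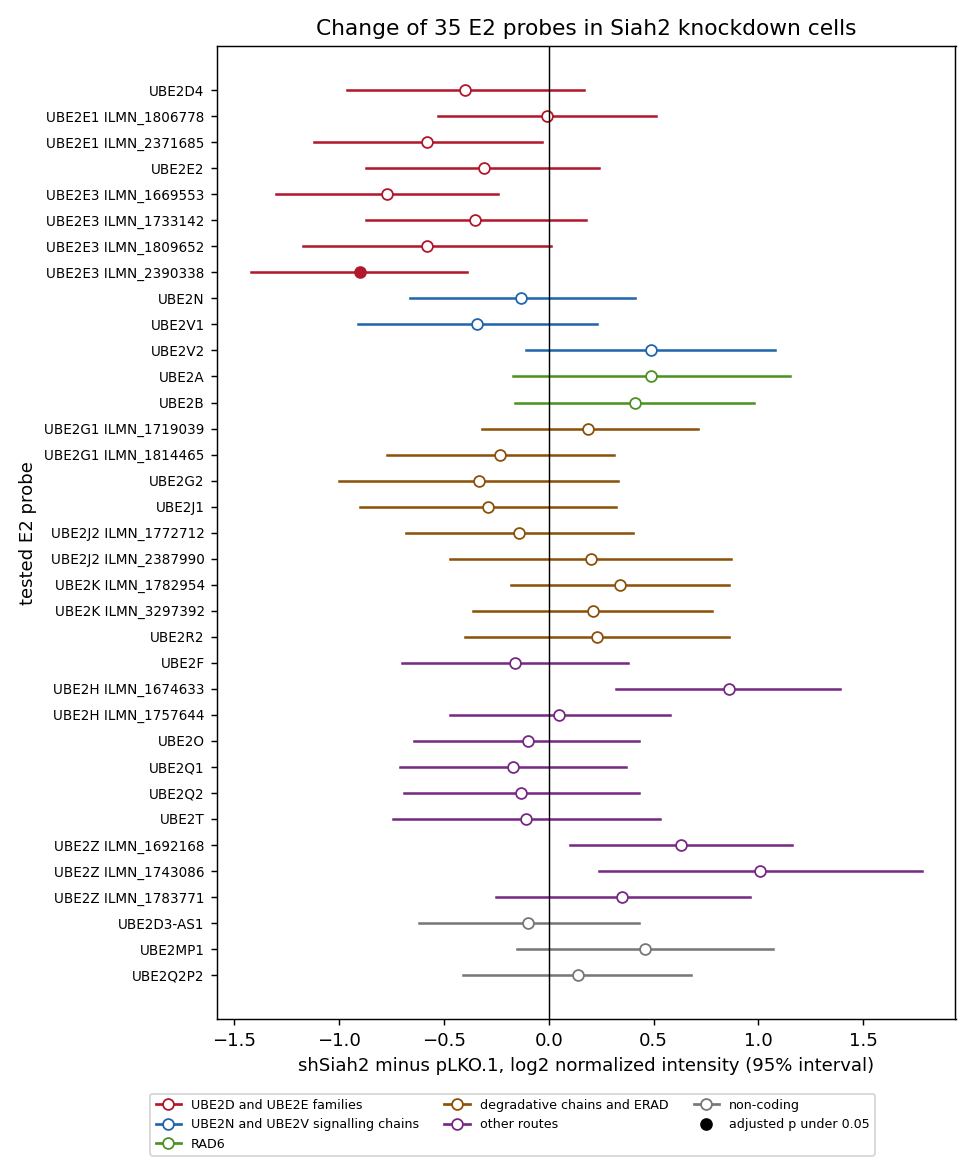
Log2 change in shSiah2 against pLKO.1 cells with its 95% interval from limma for each tested E2 probe, coloured by route, with a filled point where the adjusted p was under 0.05. The UBE2E3 probe ILMN_2390338 at -0.90 is the 1 filled point, and the highest value is the UBE2Z probe ILMN_1743086 at 1.01.

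UBE2E3 was the E2 gene whose transcript fell. It encodes a nuclear E2 of the UBE2E family, whose members share a catalytic core close to that of UBE2D and carry an extra stretch at the amino end. Its brightest probe, ILMN_2390338, read 7177.1 and 9684.7 on the pLKO.1 arrays and 4410.1 and 3499.1 on the shSiah2 arrays in deposited intensity. After normalization the log2 values were 12.90 and 12.92 in pLKO.1 and 12.04 and 11.98 in shSiah2. Both knockdown arrays thus lay below both control arrays, with little spread inside either group. The means were 12.91 ± 0.0159 and 12.01 ± 0.0412 (SD, n = 2 per group), and the fall was 1.87-fold (log2 change -0.90, SE 0.237, limma adjusted p = 0.0453, 95% interval -1.42 to -0.39).

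The other UBE2E3 probes lay on the same side but did not pass. The second brightest, ILMN_1669553, had log2 values of 10.51 and 10.64 in pLKO.1 and 9.70 and 9.91 in shSiah2, a change of -0.77 (SE 0.242, limma adjusted p = 0.0888). The dimmer ILMN_1809652 had values of 7.07 and 6.45 against 6.22 and 6.15 and lay at -0.58 (limma adjusted p = 0.247), or at -0.27 and -0.89 when pLKO.1 replicate 1 or 2 was removed and at -0.25 when no background was corrected. ILMN_1733142, the dimmest, had values of 5.91 and 6.07 against 5.62 and 5.66 and lay at -0.35 (limma adjusted p = 0.454), or at -0.12 when no background was corrected. On each of the 4 UBE2E3 probes the shSiah2 arrays lay below the pLKO.1 arrays. The probes read transcripts of 1 gene on the same arrays and are not replicates of one another. The call of ILMN_2390338 was lost without any 1 of the arrays, with limma adjusted p-values of 0.185 and 0.146 when pLKO.1 replicate 1 or 2 was removed and of 0.0818 and 0.147 when shSiah2 replicate 1 or 2 was removed. Its change then lay between -0.93 and -0.87. It was also lost with no filter on detection (adjusted p = 0.0684), and ILMN_1669553 passed when no background was corrected (adjusted p = 0.02), when the normexp offset was 50 (0.0268) and when the authors' value table was used (0.0136).

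The other UBE2E genes did not pass. UBE2E1, which attaches single ubiquitin groups with several RING ligases, differed between its probes. On the brighter ILMN_1806778 its log2 values were 11.89 and 11.80 in pLKO.1 and 11.87 and 11.79 in shSiah2. The groups overlapped on this probe, with a change of -0.01 (SE 0.238, limma adjusted p = 0.982, 95% interval -0.53 to 0.51). On ILMN_2371685, which the platform pairs with another UBE2E1 transcript record, the values were 8.18 and 8.53 in pLKO.1 and 7.69 and 7.87 in shSiah2. Here the shSiah2 arrays lay lower on both replicates, with a change of -0.58 (SE 0.251, limma adjusted p = 0.214, 95% interval -1.12 to -0.03). UBE2E2 had log2 values of 10.23 and 9.80 against 9.66 and 9.75, a change of -0.31 (SE 0.254, limma adjusted p = 0.531) in which the gap between the pLKO.1 arrays was 0.43. It was -0.10 or -0.53 when pLKO.1 replicate 1 or 2 was removed.

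Of the UBE2D family, UBE2D4 had a named probe in the annotation used, and UBE2D1, UBE2D2 and UBE2D3 were not analysed here. The same holds for UBE2L3, UBE2W, UBE2M (for NEDD8) and UBE2S (for the anaphase-promoting complex). UBE2D4 read 618.3 and 742.4 on the pLKO.1 arrays and 627.3 and 435.0 on the shSiah2 arrays in deposited intensity. Its log2 values were 9.23 and 9.02 in pLKO.1 and 8.96 and 8.50 in shSiah2, so the groups did not overlap but the nearest arrays were close. The change was -0.40 (SE 0.259, limma adjusted p = 0.423, 95% interval -0.96 to 0.17). It was -0.63 when shSiah2 replicate 1 was removed and -0.17 when shSiah2 replicate 2 was removed. UBE2D3-AS1, the antisense RNA at the UBE2D3 locus and no measure of UBE2D3 itself, had values of 6.45 and 6.45 against 6.43 and 6.27 and lay at -0.10 (SE 0.239, limma adjusted p = 0.869). Over the 8 probes of UBE2D4, UBE2E1, UBE2E2 and UBE2E3, all changes were negative, from -0.90 to -0.01, with a median of -0.49. Of all 20750 tested probes 9979 were negative, and 4 of the 8 probes here belong to UBE2E3, so that gene weighs most in this count and median. Of the 8, 1 passed, and the sign of UBE2E1 ILMN_1806778 turned to 0.03 when pLKO.1 replicate 1 was removed and to 0.02 when shSiah2 replicate 2 was removed.

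**Figure D3:**
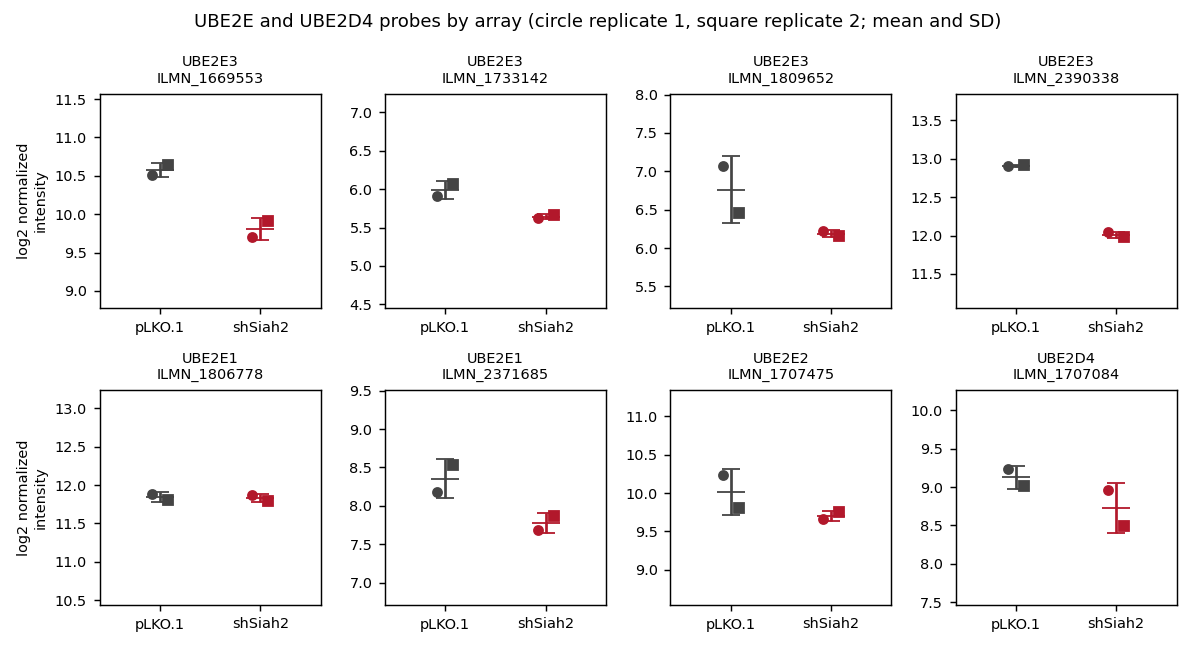
Log2 normalized intensity of the UBE2E and UBE2D4 probes on each array, with pLKO.1 in grey and shSiah2 in red, circles for replicate 1, squares for replicate 2, and bars for the mean and SD of 2 arrays. Each panel spans the same number of log2 units. The shSiah2 points lie below the pLKO.1 points on all 4 UBE2E3 probes and overlap them on UBE2E1 ILMN_1806778.

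The promoter windows of the UBE2E genes are shown as a description. Whether the change of UBE2E3 differs from those of UBE2E1 and UBE2E2 was not tested, and neither was a part of the promoters in it. Sequences are RefSeq windows of build GRCh38.p14, from 250 bases before to 50 bases after an annotated start, and entries matched 18 of the 22 protein-coding E2 genes with 24 windows. For each gene its most upstream start is printed. Capitals mark the letters GGGCGG (a GC box), CCAAT or CCGGAA (an ETS core) on either strand.
UBE2E3 promoter, chr2:180980110-180980409 (+): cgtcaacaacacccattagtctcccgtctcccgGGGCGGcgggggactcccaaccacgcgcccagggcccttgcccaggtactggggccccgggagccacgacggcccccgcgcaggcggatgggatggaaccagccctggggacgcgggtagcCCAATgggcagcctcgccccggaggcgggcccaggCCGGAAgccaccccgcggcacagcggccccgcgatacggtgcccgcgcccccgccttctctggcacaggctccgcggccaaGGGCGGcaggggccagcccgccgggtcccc
UBE2E1 promoter, chr3:23805705-23806004 (+): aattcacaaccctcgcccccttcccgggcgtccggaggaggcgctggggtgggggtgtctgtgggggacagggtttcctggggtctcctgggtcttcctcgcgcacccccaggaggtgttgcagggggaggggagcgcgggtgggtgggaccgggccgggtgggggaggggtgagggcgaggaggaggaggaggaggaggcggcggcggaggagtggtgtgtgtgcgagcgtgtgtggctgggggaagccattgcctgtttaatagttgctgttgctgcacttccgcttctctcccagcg
UBE2E2 promoter, chr3:23202848-23203147 (+): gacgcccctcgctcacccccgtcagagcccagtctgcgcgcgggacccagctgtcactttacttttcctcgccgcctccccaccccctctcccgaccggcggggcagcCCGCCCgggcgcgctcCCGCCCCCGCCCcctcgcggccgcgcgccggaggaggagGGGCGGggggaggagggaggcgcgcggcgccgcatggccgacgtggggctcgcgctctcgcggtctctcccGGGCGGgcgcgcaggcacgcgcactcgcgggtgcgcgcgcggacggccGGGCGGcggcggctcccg
The UBE2E3 window held GGGCGG at 2 places and CCAAT and CCGGAA at 1 place each. The UBE2E2 window held GGGCGG at 6 places, and the UBE2E1 window held none of these motifs, and no matches overlapped in the windows printed. Windows at other starts of these genes, not printed, differed from these. A further UBE2E1 window held CCAAT at 1 place, and a further UBE2E3 window held GGGCGG at 4 places and neither CCAAT nor CCGGAA. The further UBE2E2 windows held GGGCGG at 6 and 4 places. GGGCGG stood in 79.2% of the 24 E2 windows and in 45% of all 35116 windows, CCAAT in 20.8% against 34.6% and CCGGAA in 29.2% against 17.2%. Further searches, on either strand, for TGACGTCA (a cAMP response element) and AGAACA (a steroid receptor half-site) found a match in 0 of 24 E2 windows, where 1.85% and 14.8% of all windows held these letters. The median GC content was 73.2% in the E2 windows and 58.7% in all windows, and its part in these shares was not tested. The E2 windows are of protein-coding genes, whereas all windows belong to 27305 genes that were not selected for protein-coding ones. The shares thus compare unlike sets. Such matches describe letters only, and several windows of a gene can overlap.

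The most positive changes of single E2 probes were those of UBE2Z and UBE2H probes, and none of these probes passed. UBE2H works with the multi-subunit CTLH ligase. On ILMN_1674633 its deposited intensity was 296.5 and 429.4 on the pLKO.1 arrays and 569.2 and 516.6 on the shSiah2 arrays, and its log2 values were 7.82 and 8.09 against 8.78 and 8.84. The groups were clearly apart on this probe, with a change of 0.86 (SE 0.243, limma adjusted p = 0.0618, 95% interval 0.32 to 1.39). On the brighter UBE2H probe ILMN_1757644 the log2 values were 9.17 and 9.17 against 9.12 and 9.33. The groups overlapped there, and the change was 0.05 (SE 0.241, limma adjusted p = 0.934). ILMN_1674633 passed when no background was corrected (0.62), when the normexp offset was 50 (0.78), in the authors' value table (0.72), and when detection on all 4 arrays was required (0.86). It did not pass with cyclic loess normalization (0.82), with scaling to the 75th percentile (0.86) or with no filter on detection (0.86). With 1 array left out its change lay between 0.73 and 0.99.

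UBE2Z takes ubiquitin from the E1 enzyme UBA6 and not from the general E1 enzyme UBA1. Its brightest probe, ILMN_1692168, read 872.4 and 1061.2 on the pLKO.1 arrays and 1372.4 and 1267.0 on the shSiah2 arrays in deposited intensity. The log2 values were 9.80 and 9.60 against 10.24 and 10.41, so both knockdown arrays were above both control arrays. The change was 0.63 (SE 0.243, limma adjusted p = 0.164, 95% interval 0.10 to 1.16), and it passed at 0.56 when no background was corrected (adjusted p = 0.0484). The dim probe ILMN_1743086 was detected on 1 of 2 pLKO.1 arrays and on both shSiah2 arrays, with log2 values of 4.86 and 6.02 against 6.69 and 6.21. Its change of 1.01 (SE 0.352, limma adjusted p = 0.121) was smaller than the gap of 1.16 between the pLKO.1 arrays, and became 0.43 when pLKO.1 replicate 1 was removed and 1.59 (adjusted p = 0.0146) when pLKO.1 replicate 2 was removed. It was 0.38 when no background was corrected, 0.62 when the normexp offset was 50 and 0.61 in the authors' value table. The third probe, ILMN_1783771, lay at 0.35 (SE 0.277, limma adjusted p = 0.516), with a gap of 0.68 between the shSiah2 arrays.

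UBA6 itself had log2 values of 9.22 and 9.47 in pLKO.1 and 10.01 and 10.38 in shSiah2, a change of 0.85 that did not pass (SE 0.254, limma adjusted p = 0.0727). UBA1 lay at 0.16 (SE 0.242, limma adjusted p = 0.766). Of 9 listed E1 enzyme genes for ubiquitin and related modifiers 6 were tested, and 0 rose and 0 fell, with a median of 0.18. The most negative was ATG7, the E1 of autophagy conjugation, at -0.58. Of the ubiquitin precursor genes, UBB was the 1 of 4 tested, and it lay at -0.01 (SE 0.238, limma adjusted p = 0.986). Counts of calls in these and the later short lists are to be read against the 6.19% of all tested probes that were called.

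**Figure D4:**
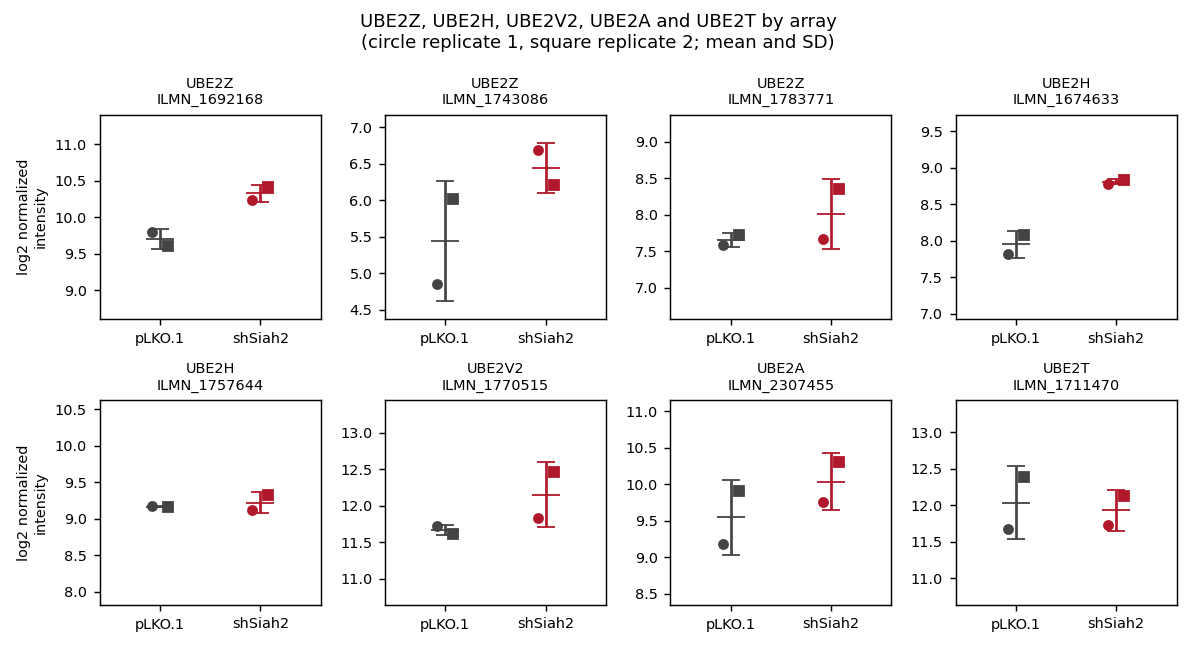
Log2 normalized intensity of UBE2Z, UBE2H, UBE2V2, UBE2A and UBE2T probes on each array, with pLKO.1 in grey and shSiah2 in red, circles for replicate 1, squares for replicate 2, and bars for the mean and SD of 2 arrays. UBE2H separates on ILMN_1674633 and overlaps on ILMN_1757644, and the UBE2T and UBE2A arrays of a group lie further apart than the group means.

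Among the E2 enzymes that build non-degradative signalling chains, none passed. UBE2N is the catalytic subunit, and UBE2V1 and UBE2V2 are partner subunits without a catalytic cysteine. UBE2N had log2 values of 10.96 and 11.25 in pLKO.1 and 10.93 and 11.02 in shSiah2, which overlapped, with a change of -0.13 (SE 0.245, limma adjusted p = 0.829). UBE2V1 lay at -0.34 (SE 0.261) and UBE2V2 at 0.49 (SE 0.272), with limma adjusted p-values of 0.509 and 0.339. UBE2V1 became -0.59 or -0.09 when pLKO.1 replicate 1 or 2 was removed, and -0.18 when no background was corrected. The UBE2V2 values were 11.72 and 11.62 against 11.84 and 12.47, so that shSiah2 replicate 2 stood above the other arrays, and the change was 0.17 without that array. A second UBE2V2 probe, ILMN_2076567, was detected on 1 array and was not tested. UBE2V1 shares its locus with the PEDS1-UBE2V1 readthrough gene, whose probes lay at 0.10 and 0.21. Of 12 ligases and regulators that act with UBE2N 10 were tested, and 0 rose and 0 fell (median 0.16), with the inhibitor-of-apoptosis ligase BIRC2 at 0.77 and SHPRH, a ligase for PCNA, at 0.60 as the largest.

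UBE2A and UBE2B, the human RAD6 enzymes that mark PCNA and histone H2B, lay at 0.49 (SE 0.301) and 0.41 (SE 0.261), with limma adjusted p-values of 0.394 and 0.410. UBE2A had log2 values of 9.19 and 9.91 in pLKO.1 and 9.76 and 10.31 in shSiah2. The pLKO.1 arrays alone were 0.72 apart, more than the group means, and the change was 0.13 or 0.85 when pLKO.1 replicate 1 or 2 was removed, and 0.76 or 0.22 when shSiah2 replicate 1 or 2 was removed. UBE2B values were 5.62 and 5.64 against 6.31 and 5.77. Here the shSiah2 arrays were both higher but 0.53 apart, and the change was 0.14 when shSiah2 replicate 1 was removed and 0.68 when shSiah2 replicate 2 was removed. Of 6 listed RAD6 partner genes 5 were tested, and 0 rose and 0 fell (median 0.56). The values were 0.69 for the N-end rule ligase UBR1, 0.57 for WAC, 0.56 for RNF40, 0.51 for UBR2 and 0.13 for RNF20. Their limma adjusted p-values were 0.152, 0.205, 0.213, 0.252 and 0.821 in this order, with standard errors from 0.241 to 0.262. The UBR1 probe was dim, with 136.9 and 170.5 in deposited intensity on the pLKO.1 arrays, and was detected on 1 of them.

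The E2 enzymes of degradative chains and of protein quality control at the endoplasmic reticulum gave no call, where 6.19% of all tested probes were called. UBE2G1, UBE2G2, UBE2J1, UBE2J2, UBE2K and UBE2R2 had 9 tested probes, of which 0 rose and 0 fell, with changes from -0.33 to 0.34 and limma adjusted p-values from 0.460 to 0.811. The groups overlapped on 7 of the 9, where 49.7% of all tested probes overlapped. UBE2K, which extends chains by itself, lay at 0.34 (SE 0.239) on its brighter probe, where both shSiah2 arrays (9.82 and 9.71) were above both pLKO.1 arrays (9.38 and 9.47). UBE2G2, the soluble E2 of this degradation route, had log2 values of 10.70 and 10.35 against 10.62 and 9.76. Its low value on shSiah2 replicate 2 set its sign, since the change of -0.33 became 0.10 without that array. The membrane-anchored UBE2J1 had values of 9.89 and 9.53 against 9.72 and 9.12, and its change of -0.29 became 0.02 without shSiah2 replicate 2. UBE2R2, a partner of cullin-RING ligases, lay at 0.23, with its shSiah2 arrays 0.79 apart.

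Probes of the same gene differed in sign for UBE2G1 and UBE2J2. UBE2G1, an E2 for substrates of cullin ligases, had log2 values of 9.33 and 9.29 against 9.46 and 9.54 on ILMN_1719039, a change of 0.19 (SE 0.237), and of 9.59 and 9.37 against 9.39 and 9.11 on ILMN_1814465, a change of -0.23 (SE 0.248). The groups were apart on the first of these and overlapped on the second. UBE2J2, like UBE2J1 anchored in the membrane, had values of 7.78 and 7.47 against 7.53 and 7.44 on ILMN_1772712, a change of -0.14 (SE 0.246), and of 7.51 and 6.88 against 7.76 and 7.04 on ILMN_2387990, a change of 0.20 (SE 0.309). Its groups overlapped on both probes, and all 4 of these 95% intervals included 0. Of 11 listed genes of this degradation route 9 were tested, and 0 rose and 0 fell (median -0.21), with the membrane ligase RNF185 at -0.61 and MARCHF6 at 0.49.

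UBE2T, the E2 of the Fanconi anaemia DNA repair route, read 3065.4 and 6764.5 on the pLKO.1 arrays and 3510.4 and 3893.8 on the shSiah2 arrays in deposited intensity. Its log2 values of 11.68 and 12.39 against 11.73 and 12.13 overlapped. The change was -0.11 (SE 0.290, limma adjusted p = 0.883, 95% interval -0.74 to 0.53), and it was -0.46 or 0.25 when pLKO.1 replicate 1 or 2 was removed. Of 15 listed genes of the Fanconi route 12 were tested, and 0 rose and 0 fell (median -0.23). The core complex gene FANCG lay at -0.98 (SE 0.278, limma adjusted p = 0.0608) and FANCL, the ligase that works with UBE2T, at -0.57 (SE 0.242, limma adjusted p = 0.203).

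UBE2F carries NEDD8 to cullin 5 and lay at -0.16 (SE 0.247, limma adjusted p = 0.780), with log2 values of 11.02 and 10.68 in pLKO.1 and 10.66 and 10.71 in shSiah2. Among 14 listed genes of the NEDD8 route 13 were tested, of which 1 rose and 0 fell (median 0.13). Over all tested probes 2.47% were called higher and 3.72% lower. DCUN1D5, a co-ligase for NEDD8, had log2 values of 10.46 and 10.89 against 11.73 and 11.67, and it rose by 1.02 (SE 0.253, limma adjusted p = 0.0371). The call was lost without pLKO.1 replicate 1 (0.80, adjusted p = 0.261), without shSiah2 replicate 1 (0.99, adjusted p = 0.0751), without shSiah2 replicate 2 (1.05, adjusted p = 0.0842) and with no filter on detection (1.02, adjusted p = 0.0816). CUL5 itself lay at 0.43.

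The remaining protein-coding members did not pass. UBE2O, a large enzyme with both E2 and E3 activity, lay at -0.10, UBE2Q1 at -0.17 and UBE2Q2 at -0.13, with standard errors of 0.245 to 0.255 and limma adjusted p-values of 0.763 to 0.865. Their groups overlapped. The pseudogene UBE2MP1 had log2 values of 6.0 and 5.65 against 5.97 and 6.60, which overlapped, and lay at 0.46 (limma adjusted p = 0.383). The pseudogene UBE2Q2P2 lay at 0.14 (limma adjusted p = 0.819) and was detected on 1 array of each group. A second UBE2MP1 probe was detected on 1 array and was not tested. Whether these probes also read the parent transcripts was not tested.

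The other listed pathway genes also gave no call. Of 15 SUMO pathway genes 11 were tested, with a median of -0.15, the SUMO protease gene SENP6 at 0.63 and the SUMO ligase gene PIAS1 at -0.44. Of 16 genes of the anaphase-promoting complex 15 were tested, with a median of -0.05, ANAPC15 at -0.58 and ANAPC10 at 0.44. All 8 listed E2-fold genes without a UBE2 symbol were tested, among them CDC34, BIRC6 and TSG101. Their changes ran from -0.09 to 0.46 with a median of 0.07, and AKTIP at 0.46 and BIRC6 at 0.34 were the largest. At an unadjusted p under 0.05, 21.1% of all tested probes passed, against which single values of this size are to be read.

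For most E2 probes the arrays of at least 1 group differed by more than the group means did. For 27 of the 35 E2 probes, 77.1%, the larger of the gaps inside the groups exceeded the difference of the group means. This held for 61.3% of all tested probes. The median gap was 0.26 between the pLKO.1 arrays and 0.21 between the shSiah2 arrays for E2 probes, against 0.25 and 0.27 for all tested probes. The exceptions included UBE2E3 ILMN_2390338, with gaps of 0.02 and 0.06, and UBE2H ILMN_1674633, with gaps of 0.26 and 0.05.

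**Figure D5:**
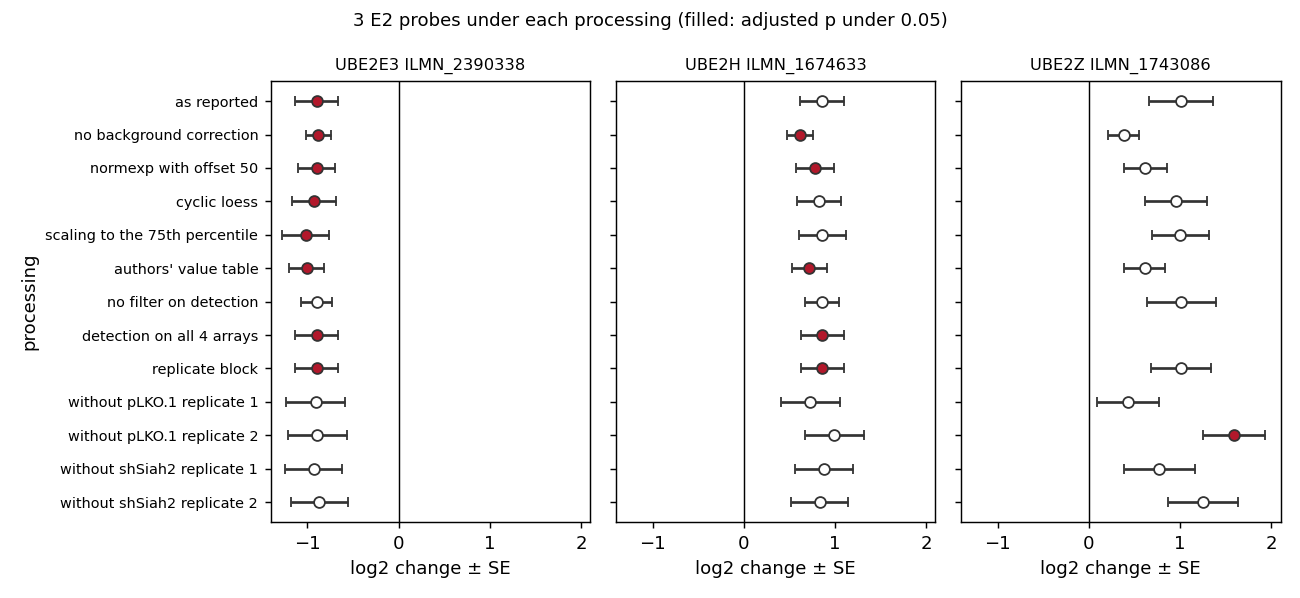
Log2 change ± SE of 3 E2 probes under each processing, filled where the limma adjusted p was under 0.05. UBE2E3 ILMN_2390338 stays between -1.02 and -0.87, UBE2H ILMN_1674633 between 0.62 and 0.99 and UBE2Z ILMN_1743086 between 0.38 and 1.59, and the dim UBE2Z probe has no value where detection on all 4 arrays was required.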

How the data were processed

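RNA of 4 samples was measured on Illumina bead arrays. Per the file headers, the authors deposited a linear intensity, for which no normalization is named, and a detection p-value for each probe and array. A further deposited table holds 24733 probes, those detected on at least 1 array, on a log2 scale (slope on log2 intensity 1.01 to 1.04), with column medians of 7.60, 7.61, 7.59 and 7.62; its centring between arrays stays unknown. The scanner software is not given in the sources used here.

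With limma 3.58.1 in R 4.3.3, neqc (normexp background from the detection p-values, offset 16, quantile normalization, log2) gave the values. Probes detected on at least 2 arrays entered lmFit and eBayes without covariates, with two-sided p-values adjusted by Benjamini-Hochberg over all 20750 of them at 0.05. The fit was run on simulated data, which did not measure how often it finds changes as small as those of most E2 probes. Symbols came from the platform annotation, updated by Entrez ID to RefSeq (GRCh38.p14); 4 probes with several symbols stayed unnamed. In a list, a gene is its brightest tested probe. Values on each array are given for all UBE2D and UBE2E probes, called probes, the 10 largest member changes and genes whose probes differ in sign, other members in full or in ranges. Lists are named by their called genes, otherwise their 2 largest changes. Members and lists were chosen with earlier results of these data known, and RNF40, RNF20, UBR2, UBA1, CDC34, TSG101, CUL5 and the PEDS1-UBE2V1 readthrough, and the alternatives run for DCUN1D5, after values were seen. Same-numbered arrays deviated together at 0.0891 over all tested probes (0.177 over the 35 E2 probes), and no label gives a shared source, so the numbers were not taken as pairs. Alternatives were other background corrections, normalizations and detection filters, the authors' value table, a replicate block and leaving out each array.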

Additional observations from a re-analysis of the deposited data

How the results depend on the processing

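Of 418 values of the 35 E2 probes under an alternative, 385 kept their direction and side of the threshold, 5 lost a call, 10 gained one and 18 turned sign. Calls changed for UBE2E3, UBE2H and UBE2Z probes, and all turned values came from leaving out 1 array of an uncalled probe. E2 probes called higher, 0 as reported, numbered 2 when no background was corrected, and 1 at a normexp offset of 50, with the authors' value table, with detection on all 4 arrays and with the replicate block. E2 probes called lower, 1 as reported, numbered 2 under the first 3 of these, and 0 with no filter on detection. With 1 array left out, 0 to 1 E2 probes were called higher and 0 to 0 lower, and the E2 median lay between -0.08 and 0.02. Over all probes, 640 were called with no filter, which tests 47228 probes, and 520 to 1329 with 1 array left out (520 when pLKO.1 replicate 1 and 800 when shSiah2 replicate 2 was removed), against 1284 as reported. SIAH2 passed under every alternative run, and -1.03 without background correction was its smallest change. With the replicate block 1815 probes were called, and UBE2H ILMN_1674633 passed at 0.86 (adjusted p = 0.0429 by limma); the numbers are not taken as pairs. The cause of these moves was not tested, and leaving out an array changes both the number of arrays and which arrays are compared. The turned probes, with their range when 1 array was left out, were UBE2E1 ILMN_1806778 (-0.06 to 0.03), UBE2F ILMN_2164242 (-0.33 to 0.01), UBE2G2 ILMN_1785179 (-0.76 to 0.10), UBE2H ILMN_1757644 (-0.05 to 0.16), UBE2J1 ILMN_1713759 (-0.59 to 0.02), UBE2J2 ILMN_1772712 (-0.29 to 0.02), UBE2J2 ILMN_2387990 (-0.16 to 0.56), UBE2K ILMN_3297392 (-0.02 to 0.43), UBE2N ILMN_1793651 (-0.27 to 0.02), UBE2O ILMN_1746579 (-0.22 to 0.02), UBE2Q2 ILMN_1683817 (-0.32 to 0.06), UBE2Q2P2 ILMN_3235825 (-0.05 to 0.32), UBE2R2 ILMN_1675721 (-0.16 to 0.62), UBE2T ILMN_1711470 (-0.46 to 0.25). UBE2Z ILMN_1743086 and UBE2Q2P2 have no value with detection on all 4 arrays. Signal near background limits UBE2B, UBE2MP1, UBE2Q2P2, UBE2Z ILMN_1743086 and the dim UBE2E3 probes.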
